A study of Zea mays with 9 samples.

Results

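The starch branching enzyme genes ae1 and sbe1 and the pullulanase-type debranching enzyme gene zpu1 were followed across endosperm of 3 maize lines. The members were the probe sets that the platform annotation assigns to these genes, named through RefSeq synonyms, and there were 4 of them for 3 genes among 17555 maize probe sets on the array. The gene ae1 had 2 of the probe sets, called first (the brighter) and second here, while sbe1 and zpu1 had 1 each. All 4 were among the 12394 probe sets bright enough to be tested. The synonym SBE1 is also given to ae1, so members were told apart by gene identifier. A different gene that shares the synonym ae1 was kept out, and its 1 probe set stayed between 35.6 and 52.8 on all 9 arrays, below the level needed for testing.

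Endosperm is the starch-storing tissue of the maize kernel. It was collected 15 days after pollination from field-grown plants of the inbred lines B73, ae wx and sh1, with 3 replicates of each line and 1 Affymetrix array for each replicate. B73 is the line of the maize reference genome, the name ae wx refers to amylose extender and waxy, and the name sh1 to shrunken1, the locus of the main endosperm sucrose synthase. The labels name no allele at any locus, and relatedness of the mutant lines to B73 is not stated, so a difference between lines belongs to the line as a whole. The replicates are called biological, with no word on ears or plants, and p-values measure the spread between these samples.

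Starch granules hold amylose, a mostly linear glucan, and amylopectin, whose chains are joined by branch points. Starch branching enzymes cut a glucan chain and rejoin the piece through a new branch point. The ae1 product, branching enzyme IIb, is the main isoform of maize endosperm, and its loss gives the long-chain, high-amylose starch after which amylose extender is named. Branching enzyme I, made from sbe1, tends to transfer longer chains than the IIb form. Debranching enzymes hydrolyse branch points and fall into isoamylases and pullulanases, and zpu1 encodes the pullulanase type, known in cereals as limit dextrinase.

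Arrays differed little in overall brightness, though in an order that followed line, and differed more in how closely replicates matched. Trimmed mean signal, after removal of the top and bottom 2%, was 625.6 to 653.4 in B73, 656.8 to 663.5 in ae wx and 669.6 to 686.4 in sh1. The lines thus did not overlap in it. The median lay between 242.6 and 258.2. Replicates of B73 spread more, with a median log2 SD of 0.18, than those of sh1 (0.08) or ae wx (0.07). Replicates 2 and 3 of sh1 deviated together from the mean of their line (r = 0.41 across probe sets), whereas every other pair of replicates within a line had a negative value. Deviations from a mean of the same 3 arrays cancel out, so negative values are largely built in. The ADP-glucose pyrophosphorylase genes sh2 (brighter probe set) and bt2, which mark starch-storing cells, were bright on every array, at 12610 to 15669 and 8922 to 11782. The dimmer sh2 probe set was lower in sh1 than in B73, with means of 3083 and 4042. The list of such markers also held wx1, which was lower in both mutant lines than in B73, and zein genes, not reported here. Of the genes at the naming loci, wx1 was 3.04-fold lower in ae wx than in B73 and sh1 was 9.48-fold lower in the sh1 line than in B73. The third, ae1, was not lower in the line whose name includes ae: both of its probe sets were higher in ae wx than in B73, by 1.21-fold and 1.41-fold. With no allele named and no probe position given, its signal does not check that label. The log2 ratio of GAPDH 3′ to 5′ control signal, a sign of RNA quality, was 2.20 to 2.90 on B73 arrays, 4.18 to 4.69 on those of ae wx and 5.79 to 6.12 on those of sh1, so it cannot be told apart from line in any comparison. The other 3 such controls did not give this order. Cyclophilin was highest in B73 (0.23 to 0.54, against 0.014 to 0.096 for ae wx and −0.033 to 0.052 for sh1), EF1a was highest in ae wx (1.38 to 1.57, against 1.07 to 1.21 for B73 and 1.24 to 1.33 for sh1), and actin overlapped between all lines.

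Both branching enzyme genes had their highest signal in ae wx, and the debranching enzyme gene had its highest in B73. In ae wx against B73, the 3 probe sets of ae1 and sbe1 rose by 1.21-fold, 1.41-fold and 1.75-fold, and zpu1 was 2.91-fold lower. In sh1 against B73, zpu1 was 4.53-fold lower and no branching enzyme probe set passed the test. The threshold was an adjusted p below 0.05, from limma on log2(signal + 16) with adjustment over all 12394 probe sets. Every fold change is on that scale, which understates the change of dim genes. All 4 member probe sets were called in ae wx against B73, where 53.4% of all probe sets were called. In sh1 against B73 1 of 4 was called, against 55.9% of all probe sets, and in ae wx against sh1 3 of 4, against 36.7%. Over the 3 lines together, the moderated F test called all 4, as it did 69.2% of all probe sets. So many probe sets differed between these lines that being called does not set the members apart.

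**Figure D1:**
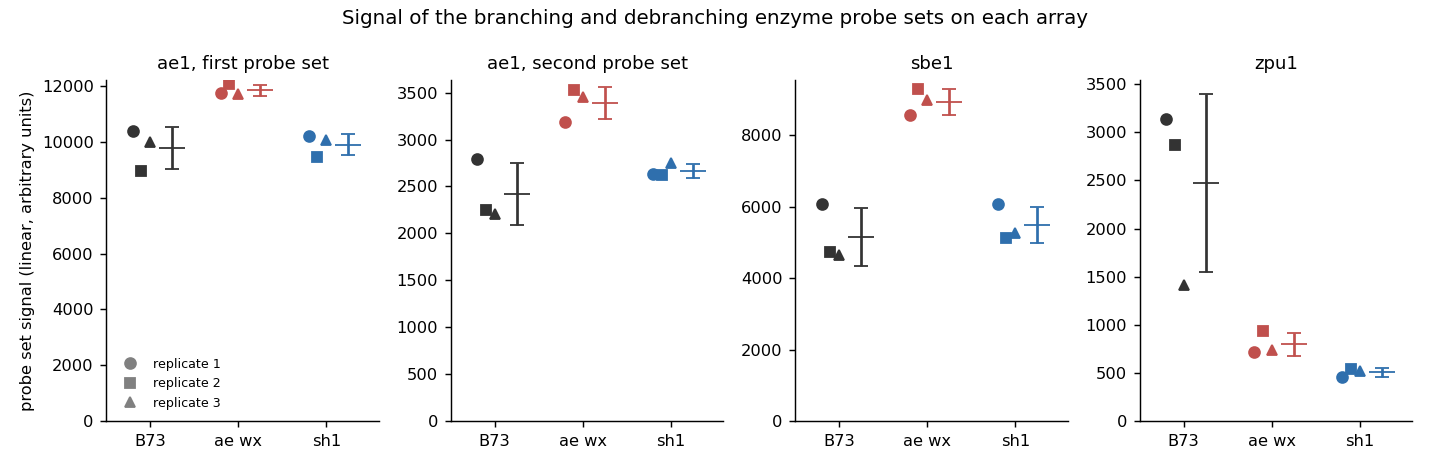
Probe set signal (linear, arbitrary units, axes from 0) on each of the 9 arrays, with 1 panel for each member probe set. Symbols mark replicates, and the dash and bar beside them are the mean and SD of 3 arrays. In the panels of ae1 and sbe1 all ae wx arrays lie above the rest, and in the zpu1 panel B73 lies above ae wx and ae wx above sh1, with B73 replicate 3 at 1412.

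The first ae1 probe set read 10412, 8974 and 9995 in B73 replicates 1 to 3. Its ae wx arrays read 11774, 12085 and 11728, and its sh1 arrays read 10210, 9471 and 10062. All ae wx arrays were above the other 6, while B73 and sh1 overlapped. The mean was 11862 ± 194 (SD, n = 3) in ae wx, 9794 ± 740.2 in B73 and 9914 ± 391 in sh1. On the log2 scale ae wx was higher than B73 by 0.28 ± 0.06 (SE, adjusted p = 0.00399) and higher than sh1 by 0.26 ± 0.06 (adjusted p = 0.0087). The difference between sh1 and B73 was 0.02 (95% interval −0.12 to 0.16, adjusted p = 0.804), so a change of more than about 1.12-fold either way lay outside the interval. That small difference took the opposite sign under each of 3 other scalings of the arrays.

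The second ae1 probe set gave the same order of lines at lower signal. It read 2795, 2254 and 2205 in B73, 3193, 3526 and 3450 in ae wx, and 2629, 2618 and 2753 in sh1. Again the ae wx arrays stood above the other 6, and the sh1 arrays fell inside the range of B73. The ae wx mean of 3389.5 ± 175 (SD, n = 3) exceeded the B73 mean of 2418 ± 328 by 0.49 ± 0.10 (SE, log2, adjusted p = 0.00245). Against sh1, at 2667 ± 75.0, the difference was 0.34 ± 0.10 (adjusted p = 0.0228). This call against sh1 ended when sh1 replicates 2 and 3 were averaged as 1 sample (adjusted p = 0.0626). It also ended without ae wx replicate 2 or 3, or any 1 of the sh1 arrays (adjusted p = 0.0521 to 0.0886). In sh1 against B73 the difference was 0.15 (95% interval −0.08 to 0.37, adjusted p = 0.23), and without B73 replicate 1 it was 0.26 and was called (adjusted p = 0.0113). Under 3 other scalings it was 0.045 to 0.091, not called.

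The 2 ae1 probe sets therefore placed the lines alike but differed in the size of the ae wx increase. Within an array, the log2 ratio of the second probe set over the first was −1.80 ± 0.06 (SD, n = 3) in ae wx, −1.89 ± 0.06 in sh1 and −2.02 ± 0.14 in B73. The value has no meaning as a level, since probe sets differ in how brightly they report, and its change between lines is what can be read. An exact permutation test over all 1680 arrangements of the arrays into lines gave p = 0.05 for this ratio. Adjusted over the 6 ratios tested it was also 0.05, which did not pass. Without B73 replicate 1 it did (adjusted exact p = 0.0214). RefSeq lists 2 transcripts for ae1, and the suffix of both probe sets marks probes that are shared by transcripts of a gene.

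The probe set of sbe1 showed the largest increase of the branching enzyme probe sets. Its B73 arrays read 6074, 4720 and 4645, its ae wx arrays 8562, 9288 and 8983, and its sh1 arrays 6081, 5138 and 5261. All ae wx arrays were above the other 6 with a wide gap, and B73 overlapped with sh1. The mean was 8944 ± 365 (SD, n = 3) in ae wx against 5147 ± 804 in B73, a log2 difference of 0.81 ± 0.11 (SE, adjusted p = 0.000188). Against sh1, at 5493 ± 513, the ae wx level was 1.63-fold higher (0.70 ± 0.11, adjusted p = 0.000678). Between sh1 and B73 the log2 difference was 0.10 (95% interval −0.14 to 0.34, adjusted p = 0.45), and without B73 replicate 1 it was 0.23 and was called (adjusted p = 0.0349). Under 3 other scalings it was 0.0089 to 0.043, not called. Among all tested probe sets, 81.7% changed by less than sbe1 in ae wx against B73, and 43.9% changed by less than the first ae1 probe set. The pattern of all ae wx arrays above the other 6, shared by the 3 branching enzyme probe sets, was met by 14.6% of the probe sets tested.

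**Figure D2:**
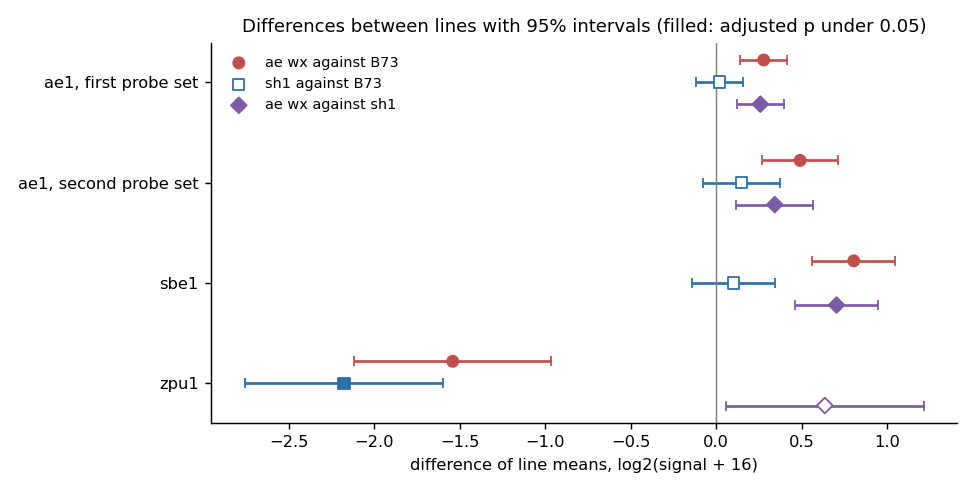
Difference of line means on the log2(signal + 16) scale for the 4 member probe sets in the 3 comparisons, with 95% intervals from limma. Filled symbols passed an adjusted p under 0.05. The branching enzyme probe sets lie right of 0 in both comparisons of ae wx, at 0.26 to 0.81, and zpu1 lies at −1.54 and −2.18 against B73.

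The debranching enzyme gene zpu1 moved the other way and by more. It read 3137, 2868 and 1412 in B73, 717, 933 and 740.1 in ae wx, and 457, 543 and 514 in sh1. No line overlapped with another, and the order B73 above ae wx above sh1 with no overlap was met by 5.46% of all tested probe sets. Within B73, replicate 3 was far below the others, and the highest B73 array was 2.22 times the lowest. The B73 mean was 2472 ± 928 (SD, n = 3), against 797 ± 118 in ae wx and 505 ± 43.8 in sh1. The log2 difference from B73 was −1.54 ± 0.26 (SE, adjusted p = 0.000752) in ae wx and −2.18 ± 0.26 (adjusted p = 7.5e-05) in sh1. These sizes exceeded those of 94.3% and 96.7% of the probe sets tested. In such bulk tissue, fewer cells that express a gene and less RNA per cell cannot be told apart. The result rests on 1 probe set, whose probe positions are not given. The GAPDH 3′ to 5′ ratio rose from B73 through ae wx to sh1, the reverse of the order of zpu1, and its part was not tested.

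Whether ae wx and sh1 differed from each other in zpu1 depended on how the spread was estimated. The mean was 1.55-fold higher in ae wx (log2 difference 0.64, 95% interval 0.06 to 1.21), and the adjusted p of 0.0811 missed the threshold although the arrays did not overlap. The model takes 1 spread for all lines, and the log2 SD of zpu1 was 0.12 among sh1 arrays, 0.20 among ae wx arrays and 0.63 among B73 arrays. With only the ae wx and sh1 arrays in the fit the same difference was called (adjusted p = 0.0018). It was also called with array weights for each line (adjusted p = 0.00292) and without B73 replicate 3 (adjusted p = 0.00182). For the comparisons with B73, leaving out B73 replicate 3 made the differences larger, at −1.90 for ae wx and −2.54 for sh1.

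B73 replicate 3 was also the lowest of its line in the summed signal of the embryo and aleurone markers and of the green tissue markers. By less, it was the lowest for the basal transfer layer markers as well (1174, 1174 and 1109 in replicates 1 to 3). The part of these lists in the zpu1 result was not tested. Of 6 embryo and aleurone markers on the array 4 were tested, and 3 of these were lower and none higher in ae wx than in B73. In sh1, 1 was lower than in B73. Over all tested probe sets, 24.4% were lower and 29.1% higher in ae wx than in B73. In sh1 these shares were 25.5% and 30.5%. Their summed signal was 12461, 14108 and 9990 in B73 replicates 1, 2 and 3. It was 9028 to 10673 for sh1 and 7559 to 8145 for ae wx. The seed globulin gene glb1 read 3183, 3111 and 1745 in B73, against 341 to 758 for sh1 and 416 to 465 for ae wx. Of 7 green tissue markers 4 were tested, with 1 higher and 2 lower in ae wx, and 1 higher and 1 lower in sh1, than in B73. The higher marker, lhcb5, reached the level needed for testing on mutant arrays only. The green tissue sum was 1541, 1658 and 1020 in B73 replicates 1, 2 and 3 and 942 to 1071 over the mutant lines. The low sum in replicate 3 came mostly from psah1, a photosystem I subunit gene, at 545.8, 729.8 and 107.7 in replicates 1 to 3, while me3 was not low there (232, 179 and 233).

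Most tested markers of the basal transfer layer, the cells that face maternal tissue, were higher in both mutant lines than in B73. Of 8 such markers on the array 6 were tested, and against B73 5 were higher and none lower in each mutant line. Of all tested probe sets, 29.1% were higher and 24.4% lower in ae wx, and 30.5% and 25.5% in sh1. Among these, mrp1 reached the level needed for testing on sh1 arrays only (139 to 205). It read 33 to 37 in ae wx and 11 to 16 in B73. The marker bap2 reached that level on mutant arrays only. Entry of both into the test thus depended on lines in which they were high. The summed signal of the list was 1109 to 1174 in B73, against 2473 to 4291 for sh1 and 1878 to 5077 for ae wx. The sum was highest in ae wx replicate 1. For markers of the region around the embryo, 1 of 2 was tested and was higher in ae wx, with sums of 185 to 209.8 in B73, 209 to 224 in sh1 and 219 to 440 in ae wx. The 1 pericarp marker, p1, was higher in ae wx than in sh1 and read 229.6 to 251 in sh1, 244 to 276 in B73 and 283 to 314 in ae wx. For these last 2 lists, B73 replicate 3 was the highest of its line. None of these marker signals was 0 on any array, and their part in the results was not tested.

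The member probe sets changed unequally, as ratios within an array show without any choice of scaling. The log2 ratio of sbe1 over the first ae1 probe set was −0.41 ± 0.04 (SD, n = 3) in ae wx, −0.85 ± 0.10 in sh1 and −0.93 ± 0.16 in B73. The ratio in ae wx was thus 1.44-fold above B73 and 1.36-fold above sh1, with no overlap (exact permutation over the 3 lines, p = 0.0179, adjusted p = 0.0321). With the second ae1 probe set the ratio was 1.08 ± 0.03 in B73 and 1.03 ± 0.15 in sh1, and in ae wx it was 1.24-fold above B73 and 1.28-fold above sh1 (exact permutation, p = 0.0214, adjusted p = 0.0321). That result did not pass without ae wx replicate 1 or 2 (adjusted exact p = 0.0686 and 0.0514). So the sbe1 probe set increased more than either ae1 probe set in ae wx, by an amount that depended on the ae1 probe set. The ratio of the 2 ae1 probe sets itself differed by 1.16-fold between ae wx and B73, and probe sets may differ in how fully they report a change.

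Ratios with zpu1 separated B73 from both mutant lines. The log2 ratio of zpu1 over the first ae1 probe set was −4.26 ± 0.17 (SD, n = 3) in sh1, −3.88 ± 0.18 in ae wx and −2.06 ± 0.65 in B73. The change from B73 was 3.53-fold in ae wx and 4.59-fold in sh1, and no lines overlapped (exact permutation over 3 lines, p = 0.00357, the smallest this design can give, adjusted p = 0.0107). With the second ae1 probe set the changes were 4.09-fold and 5.02-fold, with the same p-values. Against sbe1 the changes were 5.09-fold in ae wx and 4.85-fold in sh1 (exact permutation, p = 0.0321, adjusted p = 0.0386), and the 2 mutant lines overlapped. The last result did not pass without ae wx replicate 1 (adjusted exact p = 0.0536). This log2 ratio was −1.12 ± 0.52 in B73, against −3.40 ± 0.25 for sh1 and −3.47 ± 0.15 for ae wx, and the mutant lines differed by 0.07 (exact permutation, p = 0.9).

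**Figure D3:**
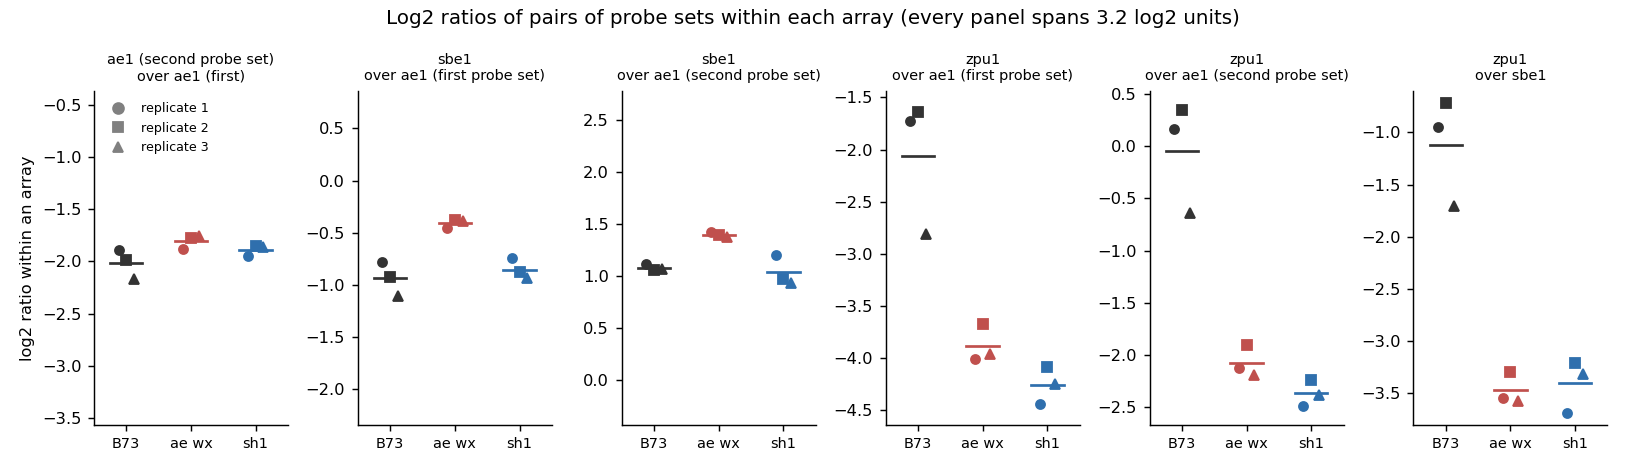
Log2 ratio of pairs of member probe sets within each of the 9 arrays, with the line mean as a dash; every panel spans the same range of log2 units, and the position on the axis is not a level. The ratios of sbe1 over ae1 are raised in ae wx, and the ratios with zpu1 are lower in every ae wx and sh1 array than in any B73 array.

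The other genes of the starch pathway put these changes in context. The list was drawn up with earlier results of these data known; 13 of its genes were matched on the array, and 9 were bright enough to be tested. Compared with B73, 7 of the 9 were higher and 1 was lower in ae wx, where 29.1% of all probe sets were higher and 24.4% lower. The median log2 difference was 0.27, against 0.04 over all probe sets. In sh1 against B73, 0 were higher and 3 lower, where 30.5% of all probe sets were higher and 25.5% lower, and the medians were 0.02 and 0.04. Rescaling to a common trimmed mean turned that background to 25.1% higher and 31.4% lower. The count of 3 fell to 1 without sh1 replicate 2, without sh1 replicate 3, or with these averaged. In those fits 46.8% to 47.2% of all probe sets were called, against 55.9% in the main fit. In ae wx against sh1, 6 were higher and 1 lower, with 17.8% and 18.8% of all probe sets, and the medians were 0.27 and 0.00. The last 2 comparisons each share arrays with the first, so their counts are not independent of one another. GBSSIIa, counted as higher in ae wx against both other lines, reached the level needed for testing on ae wx arrays only. Its entry in the list therefore depended on being high there. With that level required on all 9 arrays, 7 genes were called in ae wx against B73 and 6 in ae wx against sh1. Of all probe sets kept by that rule, 51.3% and 33.2% were called.

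Genes that supply ADP-glucose, the glucosyl donor of starch synthesis, were higher in ae wx as the branching enzyme genes were. All 5 tested were higher than in B73, by 0.20 to 0.70 (log2), and none was called between sh1 and B73. The increase was 0.22 ± 0.04 (SE, adjusted p = 0.00216) for the large subunit gene sh2 and 0.27 ± 0.06 (adjusted p = 0.00407) for the small subunit gene bt2. A second probe set of sh2 gave −0.05 (adjusted p = 0.715) in ae wx and was lower in sh1 (−0.39, adjusted p = 0.00741). AGP2, a further gene of this enzyme, rose from 1102 to 1802 (0.70 ± 0.08, adjusted p = 8.09e-05). The ADP-glucose transporter gene bt1 read 9189, 8402 and 11768 in B73, whereas all ae wx arrays were higher, at 13502, 14134 and 13414 (0.50 ± 0.10, adjusted p = 0.00274). The increase of Agpsemzm was the smallest, at 0.20 ± 0.07 (adjusted p = 0.038).

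Among starch synthases, wx1, the granule-bound enzyme of amylose synthesis, was the 1 gene of the list that was lower in ae wx. Its signal was 4738 in ae wx, 14314 in B73 and 10332 in sh1, so that it was the lowest in the line named for it and was also lower in sh1 than in B73 (−0.47 ± 0.10 SE, log2, adjusted p = 0.00357). The soluble synthase gene ss1 was higher in ae wx (0.32 ± 0.08, adjusted p = 0.00524) and lower in sh1 (−0.21 ± 0.08, adjusted p = 0.0376) than in B73. GBSSIIa, a second granule-bound synthase gene, was dim at 74.6 to 97.1 in B73 and 147 to 155 in ae wx (0.74 ± 0.10, adjusted p = 0.000145). Only its ae wx arrays reached the level needed for testing.

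Of the other debranching enzymes, the isoamylase gene iso2 could be tested and iso3 was too dim. Signals of iso2 were 773, 610.1 and 559.9 in B73, 560.4, 527 and 598 in ae wx, and 526, 443 and 428 in sh1. Its ae wx arrays overlapped with B73 (−0.19, 95% interval −0.48 to 0.10, adjusted p = 0.248), and its sh1 arrays lay below B73 (−0.45 ± 0.13 SE, adjusted p = 0.0139). The lower level in sh1 was 1.37-fold for iso2 and 4.53-fold for zpu1, and the difference between these genes was not tested. The list also held du1, agpsl1 and BMY1, which were too dim to be tested, and several names such as su1, su2 and sbe3 that were not matched and are not analysed here.

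**Figure D4:**
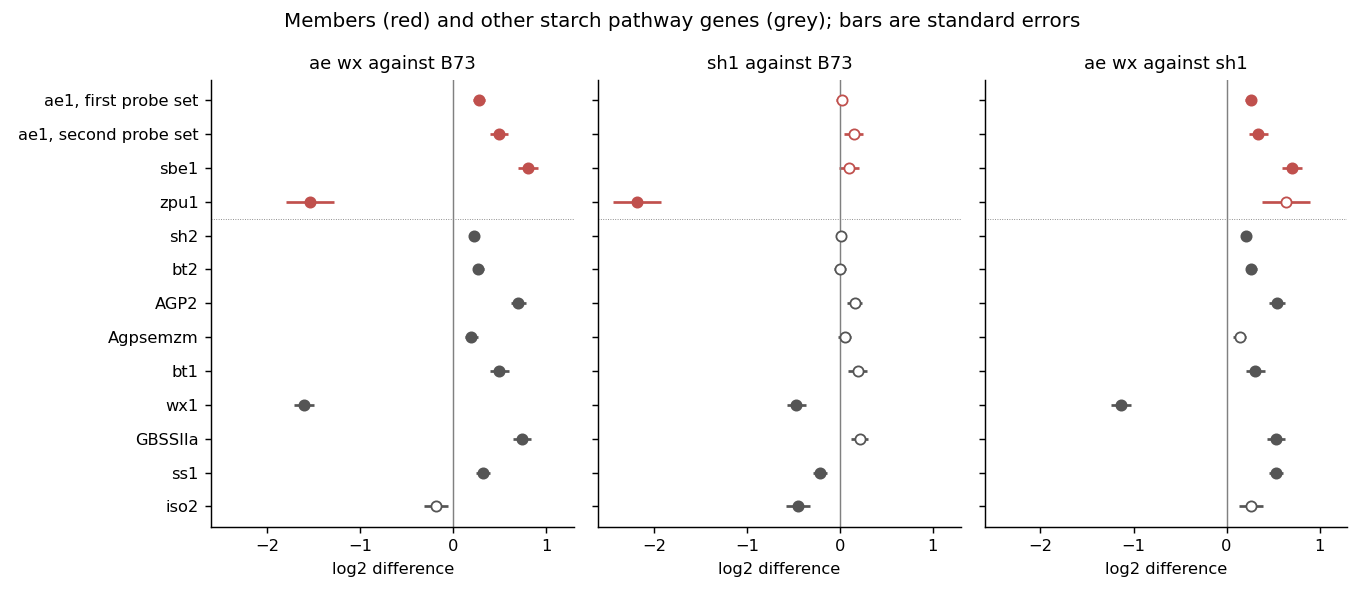
Log2 difference with its standard error for the member probe sets (red) and the 9 tested starch pathway genes (grey) in the 3 comparisons, filled where the adjusted p was under 0.05. In ae wx against B73, zpu1 and wx1 stand apart to the left, at −1.54 and −1.60, and most others lie right of 0.

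Arrays of the compared lines did not overlap for every member probe set in ae wx against B73 and in ae wx against sh1, nor for 60.2% and 62.6% of all tested probe sets. In sh1 against B73 they did not overlap for zpu1 alone of the 4, against 60.9% of all. With 3 arrays against 3, an exact permutation test of a member cannot give less than p = 0.1, the value it gave wherever arrays did not overlap. Over all 3 lines the exact permutation test gave p = 0.0286 and 0.0143 for the first and second ae1 probe sets, 0.0179 for sbe1 and 0.00357 for zpu1, the last being the smallest it can give.

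Named genes with the most similar profiles were found by the root mean square difference between log2 values over the 9 arrays, after the mean of each probe set was removed. The search covered 950 named probe sets, and since the 9 arrays form 3 lines, likeness reflects chiefly the 3 line means. The nearest to the first ae1 probe set were the aquaporin gene PIP2-1 (0.03), the alcohol dehydrogenase gene adh1 (0.05) and bt2 (0.05). The second ae1 probe set was nearest to mir3 (0.08), the bZIP gene ohp2 (0.08) and the receptor kinase gene serk2 (0.09). For sbe1 they were AGP2 (0.13), the aspartate kinase and homoserine dehydrogenase gene AKHSDH1 (0.14) and the kinase gene SnrK1 (0.14). For zpu1 they were the homeobox gene lg3 (0.21), stv3 (0.33) and glct1 (0.35), the last a glucose translocator gene. These values compare with 0.12 between the 2 ae1 probe sets, 0.25 and 0.18 between sbe1 and the first and second of them, and 1.01 to 1.13 between zpu1 and each of the others. In B73 replicate 3, where zpu1 was low, lg3 was also the lowest of its line (0.69 above its mean, against 1.44 and 1.12 in replicates 1 and 2). So was glct1, by less (0.83, against 1.14 and 0.87), while stv3 was not (1.22, against 1.37 and 0.94). These genes were picked for likeness over the same 9 arrays, so likeness in this array is partly built in.

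**Figure D5:**
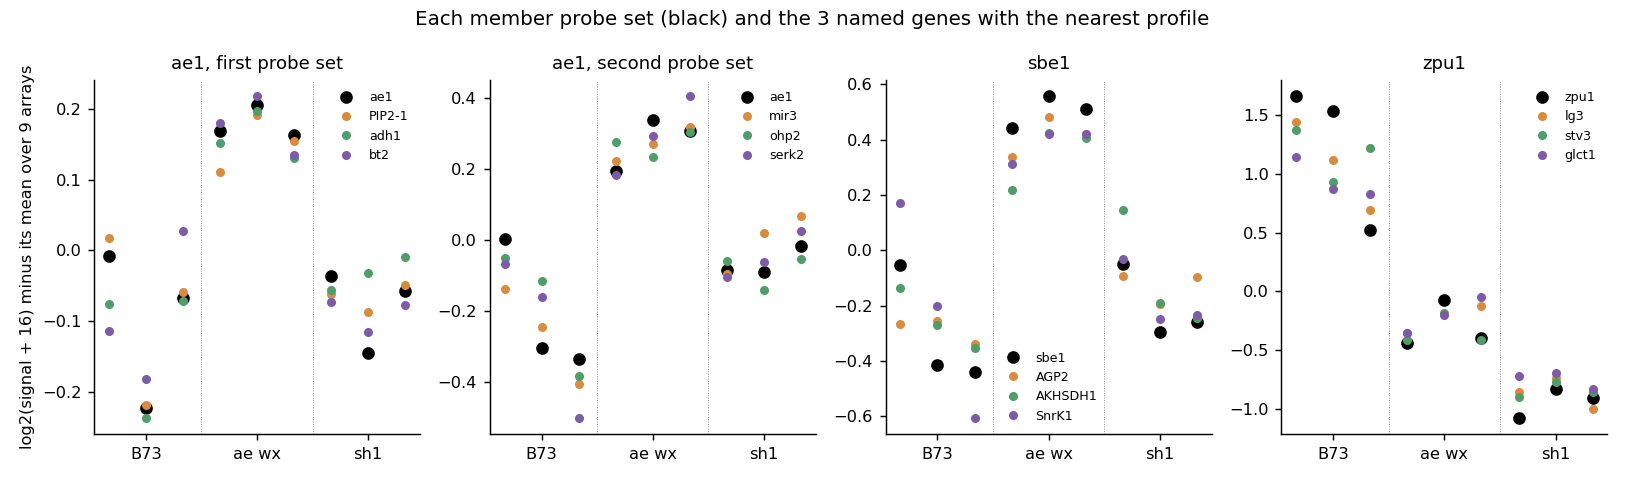
Log2(signal + 16) minus its mean over the 9 arrays for each member probe set (black) and the 3 named genes with the nearest profiles (colours), arrays in the order of replicates 1 to 3 within each line. Vertical axes differ between panels; for zpu1 the B73 arrays spread most, while lg3, stv3 and glct1 share the order of the lines.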

How the data were processed

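Endosperm RNA was read on 9 Affymetrix arrays. The deposited table holds 1 linear intensity, called signal here, per probe set and array, and the submitters' processing notes list GCOS 1.4 without saying what it did. How probes were summarised and scaled is not stated in these sources. Values were used as deposited, since trimmed means differed by at most 9.72%. That difference followed line, so results under 3 other scalings are also given. With a common trimmed mean, the first ae1 probe set was 0.23 (log2) higher in ae wx than in B73, against 0.28 as deposited. The 113 AFFX and 66 reporter controls were left out. Probe sets with signal of at least 20% of the array's trimmed mean (125.1 to 137.3) in at least 3 arrays were kept. The number of arrays limits the precision.

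Tests ran on log2(signal + 16) in limma 3.58.1 under R 4.3.3 (1 mean per line, all 9 arrays, eBayes with intensity trend, two-sided, Benjamini-Hochberg over all kept probe sets). Permutation tests (two-sided, exact) used Python 3.11.15, and figures used matplotlib 3.10.9. The fit was also run on simulated data with known changes. Those data had the same spread in every line, so lines of unequal spread were not checked. Of 17555 probe sets, 1452 have 1 platform symbol, 1 has several and 16102 have none, and 1377 were found in RefSeq (Zm-B73-REFERENCE-NAM-5.0), used for names only. Named are the members, wx1, sh1, the measured pathway genes and the 3 nearest genes of each member probe set. From the marker lists glb1, psah1, me3, lhcb5, mrp1, bap2 and p1 are named, chosen after their values were seen. For pathway genes the brightest probe set stands for the gene. A probe set with the synonym ss2 was left out because its gene is also named sus1, a sucrose synthase. Members and lists were chosen with earlier results of these data known.

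Replicate numbers did not pair the arrays: deviations of same-numbered arrays correlated at −0.23 to 0.14.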

Additional observations from a re-analysis of the deposited data

How the results depend on the processing

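Each member's difference was recomputed under 22 alternatives: pseudocount, filter, scaling, variance model, samples in the fit, sh1 replicates 2 and 3 averaged, replicate block, and each array left out. In ae wx against B73 all 4 probe sets kept their direction and call, as did zpu1 in sh1 against B73, and sbe1 and the first ae1 probe set in ae wx against sh1. Between sh1 and B73, the first ae1 probe set was −0.016 with quantile normalization, −0.038 with median centring and −0.072 with a common trimmed mean, and −0.042 to 0.065 with an array left out, never called. Leaving out an array gave 0.086 to 0.26 for the second ae1 probe set and 0.026 to 0.23 for sbe1 there, called in each case without B73 replicate 1. With quantile normalization, median centring and a common trimmed mean, these were 0.045, 0.091 and 0.057 for the second ae1 probe set and 0.014, 0.043 and 0.0089 for sbe1, none called. In ae wx against sh1, the second ae1 probe set ranged from 0.31 to 0.39 with an array left out and was 0.35 (not called) with the averaged pair. There zpu1 was 0.52 to 0.71 with an array left out, and 0.64, called, with array weights or only the lines compared. The pathway count in sh1 against B73 was 1 with the averaged pair and 1 to 4 with an array left out. The share of all probe sets called there was 47.2%, and 46.8% to 62.9%. Over all alternatives the number of pathway genes called was 7 to 8 in ae wx against B73, with 8 in the main fit. The share of all probe sets called was 44.1% to 60.4%. In ae wx against sh1 the number was 6 to 9, with 7 in the main fit, and the share was 26.9% to 54.7%. The count of 9 came with array weights and with only the lines compared, where the share was 54.7% and 54.3%. Adjusted exact p-values ranged from 0.0214 to 0.186 for the ratio of the ae1 probe sets, 0.0214 to 0.0686 for sbe1 over the second ae1 probe set and 0.0214 to 0.0536 for zpu1 over sbe1. The replicate block changed no member's call (sbe1 in ae wx against B73, 0.81). With it, the second ae1 probe set in ae wx against sh1 lay just under the threshold (limma adjusted p = 0.0499). The cause of these changes was not tested. The exact permutation test of 3 against 3 arrays cannot pass (smallest p = 0.1) and is not counted here.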
